A study of Mus musculus with 4 samples.

Results

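The cells described here are liver T cells that held RNA of several effector cytokines in the same cell, called multi-cytokine T cells below. A cell belonged to them when it held unique molecular identifiers (UMIs, each standing for a counted RNA molecule) of at least 2 of the 4 T cell genes Cd3d, Cd3e, Cd3g and Trac, including Cd3d or Cd3e. It also had to hold UMIs of at least 2 of the 5 cytokine genes Ifng, Csf2, Cd40lg, Il4 and Tnf, no UMI of the B cell gene Cd79a, and fewer than 3 of the 4 Kupffer cell genes Clec4f, Vsig4, Cd5l and Slc40a1. This gave 416 of the 1593 cells kept (26.1%), out of 747 cells that met the T cell conditions (46.9% of all cells). The remaining 331 T cells, with UMIs of none or 1 of the 5 cytokine genes, are called the other T cells. Because the 5 cytokine genes chose the cells, their values in these cells are given as a description and without a test. Only their shares among all T cells were compared between the liver zones, which the rule did not use.

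The series profiled CD45+ leukocytes of healthy livers from C57BL/6 mice that carry a photoactivatable GFP transgene (PA-GFP). The labels give photoactivation as the treatment of every sample and name the liver zone each came from, the portal vein zone (PV) or the central vein zone (CV). Each zone has 2 droplet libraries (PV replicates 1 and 2, CV replicates 1 and 2) made with 10x 3′ v3.1 chemistry, and no library without photoactivation was analysed here. The labels give no age or sex and do not say that the libraries come from separate mice. P-values of the zone comparisons measure the spread between libraries. In comparisons of cells within each library, they measure how much the difference varied among the libraries. Either spread may be technical.

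The 4 libraries held 588 to 755 barcodes and 2741760 to 4373488 UMIs each. Of 1939 distinct barcodes, 282 stood in more than 1 library, and each was kept only in the library holding at least 70% of its UMIs. Among the multi-cytokine T cells, 22 had such a barcode, and their own library held at least 80.1% of its UMIs. PV replicate 1 gave 98 multi-cytokine T cells, PV replicate 2 gave 123, CV replicate 1 gave 101 and CV replicate 2 gave 94. Wherever 4 values follow each other below, they keep this order of libraries. Their median depth was 6558 UMIs, against 5739 in the other T cells, so a gene was somewhat easier to detect in them. The T cell genes Trbc2 and Lat, which the rule did not use, summed to 1838 to 1940 counts per 1000000 UMIs of the summed cells (CPM) in the multi-cytokine T cells and to 1515 to 2007 CPM in the other T cells.

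Cytokines are secreted or surface proteins by which T cells instruct neighbouring cells. Naive T cells start their cytokine genes slowly after a first encounter with antigen, whereas innate-like liver T cells, among them invariant NKT cells, are known to keep cytokine transcripts such as Ifng and Il4 ready before stimulation. T cell receptor signals reach cytokine promoters through factors of the NFAT, NF-kB and AP-1 families, and the NFAT and Rel factors share a GGAAA core in many of their sites.

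The sequences upstream of the cytokine genes are shown because the transcripts of these genes defined the cells. RefSeq start sites on GRCm38.p6 were matched for 4 of the 5 cytokine genes, Ifng, Csf2, Il4 and Tnf, and the 250 bases before each start were searched on both strands for GGAAA. A match on the opposite strand reads TTTCC as printed. Capitals mark the matches, and each sequence runs 5′ to 3′ on the gene's strand. The window of Il4, which encodes interleukin-4, lies at chr11:53618666-53618915 on the minus strand, that of Tnf at chr17:35202008-35202257 on the minus strand, and that of Ifng at chr10:118440796-118441045 on the plus strand.
Il4: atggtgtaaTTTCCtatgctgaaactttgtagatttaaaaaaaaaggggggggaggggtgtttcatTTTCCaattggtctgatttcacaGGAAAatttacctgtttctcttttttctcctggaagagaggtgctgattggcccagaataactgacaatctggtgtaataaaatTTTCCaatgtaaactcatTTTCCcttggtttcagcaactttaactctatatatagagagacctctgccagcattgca
Tnf: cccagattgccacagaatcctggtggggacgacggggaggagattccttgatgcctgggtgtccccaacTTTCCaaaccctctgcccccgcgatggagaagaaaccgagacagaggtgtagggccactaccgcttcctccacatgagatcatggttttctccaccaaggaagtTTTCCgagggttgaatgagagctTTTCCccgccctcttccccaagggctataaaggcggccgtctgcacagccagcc
Ifng: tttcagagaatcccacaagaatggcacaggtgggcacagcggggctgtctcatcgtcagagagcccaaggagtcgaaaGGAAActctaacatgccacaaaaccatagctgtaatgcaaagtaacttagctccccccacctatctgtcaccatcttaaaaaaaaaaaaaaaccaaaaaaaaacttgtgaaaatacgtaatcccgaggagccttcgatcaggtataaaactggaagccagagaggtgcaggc

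The Il4 window held 5 GGAAA matches, a number that 0.390% of the 32851 upstream windows of the same length reached. The Tnf window held 3, which 6.39% of windows reached. The Ifng window held 1, and 55.6% of windows held at least 1. The Csf2 window held 2, a number 21.4% of windows reached. It lies at chr11:54249900-54250149 on the minus strand, not directly beside the Csf2 position given below, which comes from another annotation. Another RefSeq start of Il4 had 0 matches in its window. The letters TGANTCA, an AP-1 site, were in none of these windows and in 6.75% of all windows. These matches are letters in a window and were not tested as binding sites.

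Cd40lg and Il4 were the transcripts most often detected in the multi-cytokine T cells. Cd40lg encodes CD40 ligand, the surface signal by which T cells help B cells and license dendritic cells, and lies at chrX:57212143-57224042 on the plus strand (GRCm38). At least 1 Cd40lg UMI was found in 79.6%, 83.7%, 83.2% and 84.0% of the multi-cytokine T cells of the 4 libraries. The 4 libraries were close to each other, and 82.7% of all 416 cells had the transcript against 29.9% of the other T cells. Il4, the signature cytokine of type 2 responses, lies at chr11:53602982-53618669 on the minus strand. Its share was 74.5% and 73.2% in the PV libraries and 64.4% and 71.3% in the CV libraries, or 70.9% in all and 14.8% in the other T cells. CV replicate 1 was the lowest of the 4.

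Ifng, which encodes interferon gamma, the macrophage-activating cytokine of type 1 responses, lies at chr10:118441046-118445892 on the plus strand. It was detected in 51.0% and 62.6% of the multi-cytokine T cells of the PV libraries and in 63.4% and 58.5% of those of the CV libraries. Its level in the summed cells was 345, 686, 807 and 316 CPM. High and low libraries stood in both zones. Tnf, the inflammatory cytokine tumour necrosis factor (chr17:35199381-35202007, minus strand), was detected in 39.4% of the 416 cells, with CV replicate 1 highest at 48.5% and CV replicate 2 lowest at 31.9%.

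Csf2, which encodes the myeloid growth factor GM-CSF (chr11:54247271-54249667, minus strand), was the rarest of the 5 transcripts and was held very unevenly between cells. It was detected in 14.3% and 26.0% of the multi-cytokine T cells of the PV libraries and in 20.8% and 16.0% of those of the CV libraries. Its level was 346 and 221 CPM in the PV libraries against 108 and 29.7 CPM in the CV libraries, so the zones did not overlap, as was so for 31.3% of the genes tested between the zones. A single cell of PV replicate 1 held 218 of that library's 256 Csf2 UMIs, and a single cell of PV replicate 2 held 133 of 205. The highest cell held 32 of 71 in CV replicate 1 and 2 of 20 in CV replicate 2. Without the highest cell of each library the levels were 52.3, 78.2, 60.2 and 27.0 CPM, and the zones overlapped.

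**Figure D1:**
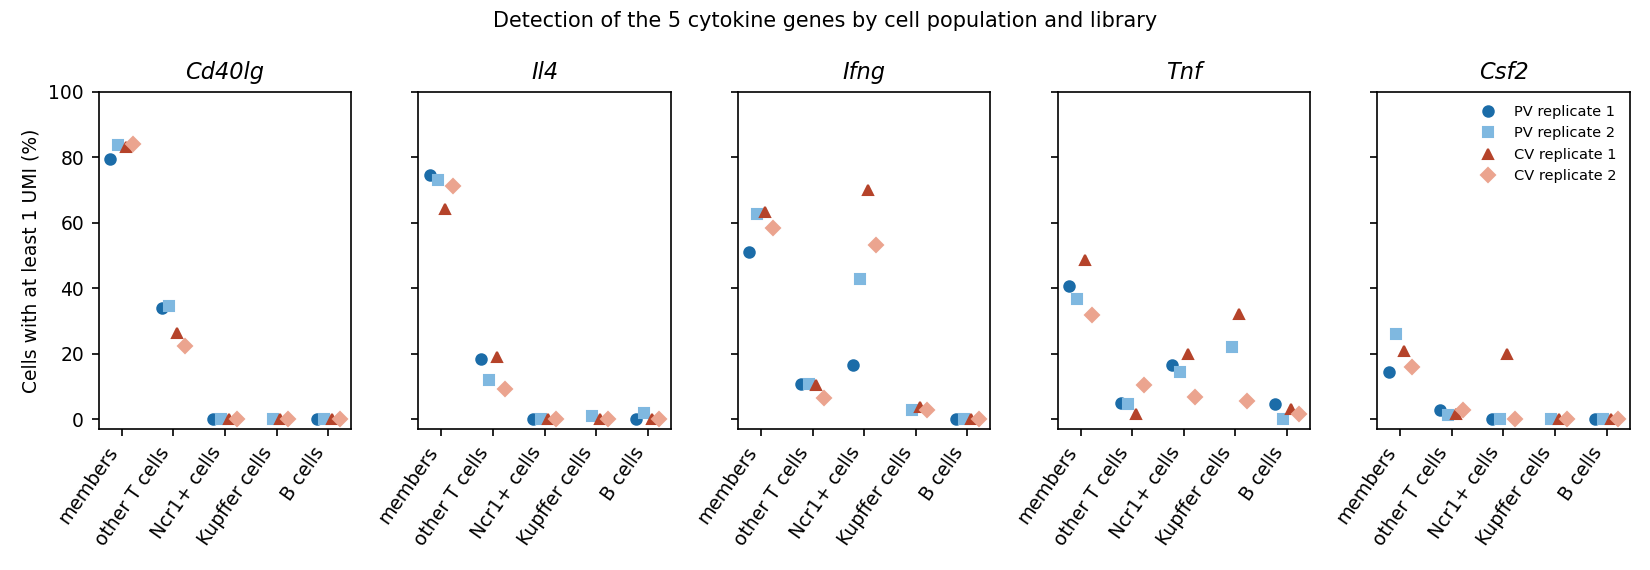
Percent of cells with at least 1 UMI of each cytokine gene (vertical axis) in 5 cell populations, with a point for each library; "members" are the multi-cytokine T cells. Detection in members was high by construction, Ifng was also frequent in Ncr1-positive cells without a T cell gene and Tnf in Kupffer cells, and no point is drawn for the 2 Kupffer cells of PV replicate 1.

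Cells of other types that held no UMI of the 4 T cell genes gave a background from free RNA. Cells that had taken up free RNA of those genes were thus left out, so this background may be too low. Among 162 B cells (median depth 3734 UMIs) there was no UMI of Ifng, Csf2 or Cd40lg, which allows a share of up to 1.85% for each. In B cells Il4 was found in 0.617% and Tnf in 1.85%. Among 206 Kupffer cells (median 6628 UMIs) Il4 was found in 0.485% and Ifng in 2.91%, and no UMI of Cd40lg or Csf2 was found, which allows up to 1.46%. Tnf was found in 21.8% of Kupffer cells, macrophages that are a known source of it. These limits cover counting error only.

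Because the rule chose cells by these genes, the share of their UMIs in the multi-cytokine T cells is raised by construction. The multi-cytokine T cells held 86.5% of all 860 Il4 UMIs, 92.6% of all 596 Csf2 UMIs, 77.7% of all 1416 Cd40lg UMIs and 76.5% of all 2137 Ifng UMIs. They held 45.7% of the 879 Tnf UMIs, with 51.0% in cells outside the T cell gate. For Csf2, 2 cells held 218 and 133 of the 552 UMIs in the multi-cytokine T cells. Many detections rested on 1 molecule: 128 of the 344 Cd40lg-positive, 123 of the 295 Il4-positive, 79 of the 246 Ifng-positive, 96 of the 164 Tnf-positive and 47 of the 82 Csf2-positive multi-cytokine T cells held exactly 1 UMI of the gene.

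The number of cytokine genes per T cell ran from none to all 5 without a gap at the threshold. Of the 747 T cells, 126 held none (16.9%), 205 held 1 (27.4%), 203 held 2 (27.2%), 137 held 3 (18.3%), 66 held 4 (8.84%) and 10 held 5 (1.34%). The 205 cells just outside the rule had a median depth of 5954 UMIs and the 203 just inside it 6159 UMIs, and cells with none had 5445.5. When each cell was thinned to 2000 UMIs, 697 cells met the T cell conditions on the thinned counts. Of these, 189 met the rule (27.1%), so the share depends strongly on depth.

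**Figure D2:**
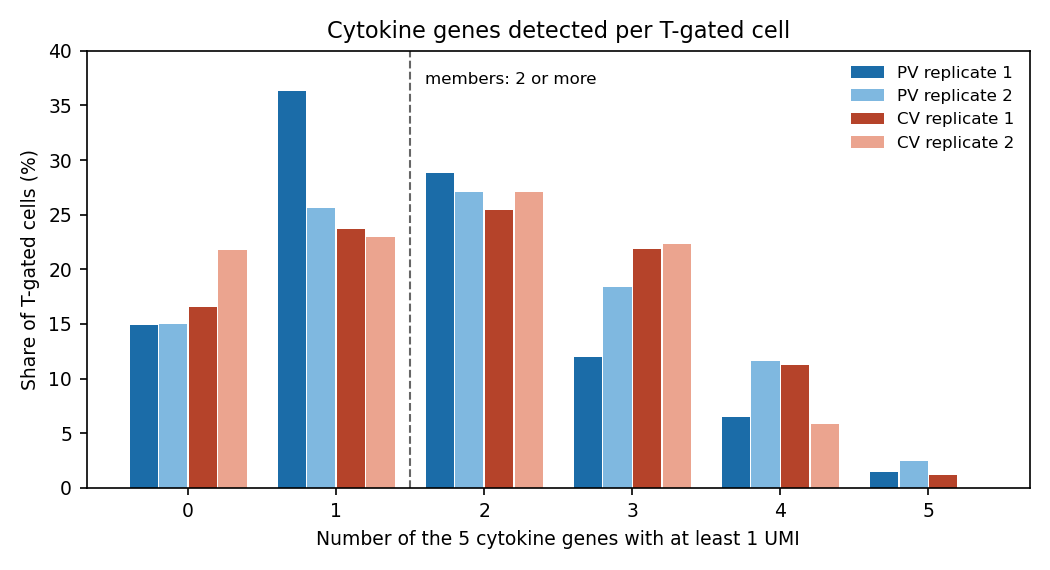
Percent of the T cells of each library (vertical axis) that held UMIs of 0 to 5 of the cytokine genes (horizontal axis), with a bar for each of the 4 libraries. In every library most T cells held 1 to 3 of the genes, and the rule falls between 1 and 2 genes, the neighbouring groups of 205 and 203 cells.

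Type 1 and type 2 cytokine transcripts were found together in the same cells. Of the 416 cells, 78 (18.8%) held Cd40lg and Il4 alone, 59 (14.2%) held Ifng, Cd40lg and Il4, and 40 (9.62%) held Ifng and Cd40lg. Cd40lg with Il4 alone was found in 24, 20, 12 and 22 cells of the libraries, and CV replicate 1 was the only library where another combination, Ifng with Cd40lg and Il4, had more cells (13). All 5 genes were found in 3, 5, 2 and 0 cells. In all, 25 combinations occurred.

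Most of these cells showed neither coreceptor RNA. The coreceptors CD4 and CD8 mark helper and killer T cells, and many innate-like T cells carry neither. Neither Cd4 nor Cd8a nor Cd8b1 was detected in 289 of the 416 cells (69.5%) and in 61.0% of the other T cells. This difference had no common direction: the shares were 61.2%, 77.2%, 61.4% and 76.6% by library against 65.0%, 59.5%, 70.6% and 48.7% in the other T cells, lower in PV replicate 1 and CV replicate 1 and higher in the other two. Cd4 was detected in 36.7%, 20.3%, 36.6% and 22.3% of the multi-cytokine T cells by library, or 28.6% in all, against 23.0% of the other T cells. The libraries numbered 1 were high in both zones. A Cd8 gene was detected in 2.40% of them and in 16.6% of the other T cells. Trdc, the constant chain of the gamma delta receptor, was found in 10 of them and in 16 of the other T cells. Its level was 9.47, 12.9, 22.8 and 32.6 CPM against 82.3, 61.3, 93.2 and 65.7 CPM, without overlap, and it fell by 2.01 ± 0.28 on the log2 scale in the test described below (edgeR adjusted p = 0.00119, and 0.417 when cells with a Tyrobp, Fcer1g or Ncr1 UMI were left out).

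Cytokine transcripts were found in cells with and without Cd4 RNA. Il4 was found in 76.9% of the Cd4-positive and 68.9% of the coreceptor-negative multi-cytokine T cells, Ifng in 57.3% and 59.9%, Csf2 in 18.8% and 20.1%, and Tnf in 42.7% and 38.1%. Klrb1c, the NK1.1 receptor of NK and NKT cells, was found in 69.2% and 76.5%, and Zbtb16, which encodes PLZF, the factor of innate-like T cells, in 33.3% and 24.9%. These shares pool cells over libraries and were not tested.

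The multi-cytokine T cells were next compared with the other T cells of the same libraries for genes outside the rule, on counts summed per library with the library as a block. Transcripts of 15 of 20 tested immediate early and dissociation genes were higher in them. So were those of 6 of 20 tested genes of the early T cell receptor response. Transcripts of 7 of 14 tested recirculation genes, of Cd8b1 and of Gzma were lower. In edgeR's quasi-likelihood test, 104 of 6042 genes passed an adjusted p of 0.05 (1.72%), 55 higher (0.91%) and 49 lower (0.811%). With DESeq2 56 genes passed, with cells thinned to 2000 UMIs 71, and without PV replicate 1 or PV replicate 2 67 and 54. A summed level cannot tell more cells with a transcript from more transcript per cell, so the share of cells with a UMI is given for several of the genes that follow.

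The immediate early list holds genes that cells switch on within minutes of a stimulus. It also holds genes known from tissue dissociation, such as the heat shock genes Hspa1a, Hspa1b and Dnajb1. Of its 20 tested genes 15 rose, these heat shock genes among them, none fell and all 20 had a log2 fold change above 0. Their median was 0.97, against -0.00054 over all genes tested. Fos, a subunit of the AP-1 transcription factor (chr12:85473890-85477273), stood at 264, 899, 743 and 555 CPM in the multi-cytokine T cells against 48.4, 172, 383 and 124 CPM in the other T cells. Each library was higher in its multi-cytokine T cells, although PV replicate 1 reached less than the other T cells of CV replicate 1. The log2 fold change of Fos was 1.92 ± 0.20 (SE from edgeR's test, n = 4 libraries, edgeR adjusted p = 9.13e-05). A UMI was held by 43.0% against 20.2% of cells.

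Junb, another AP-1 subunit, stood at 845, 1449, 1735 and 1182 CPM against 160, 458, 612 and 441 CPM in the other T cells. The 2 sets of values did not overlap, and the log2 fold change was 1.71 ± 0.14 (edgeR adjusted p = 9.31e-06). Dusp1, a phosphatase that shuts off MAP kinases, stood at 271, 766, 921 and 679 CPM against 51.6, 213, 322 and 184 CPM (log2 1.86 ± 0.13, edgeR adjusted p = 3e-06). Jun rose by a log2 fold change of 1.21 ± 0.12. Fosb, with 1.98 ± 0.29 in edgeR, missed the threshold in DESeq2 (adjusted p = 0.0547).

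Of the same list, the heat shock genes Hspa1a and Hspa1b rose by 0.99 ± 0.12 and 0.96 ± 0.10. They are near-identical copies, which makes their separate counts uncertain. Immediate early and heat shock genes are also known to respond to tissue dissociation. Whether handling has a part in these differences was not tested.

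Of 20 tested genes of the early T cell receptor response, 6 rose and none fell, with 18 above 0 and a median log2 fold change of 0.61. Nr4a3, an orphan nuclear receptor that follows receptor signals closely, stood at 78.5, 143, 161 and 35.6 CPM against 3.23, 14.3, 31.9 and 22.5 CPM. CV replicate 2 showed the smallest step, and 23.1% against 6.04% of cells held a UMI. The log2 fold change was 2.53 ± 0.36 (edgeR adjusted p = 0.00123). Nfkbid, which encodes the nuclear NF-kB regulator IkB-NS, stood at 135, 165, 200 and 116 CPM against 17.8, 49.0, 55.9 and 30.0 CPM, with no overlap (log2 2.05 ± 0.19, edgeR adjusted p = 4.9e-05).

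Gadd45b, a stress and NF-kB target, stood at 269, 425, 445 and 200 CPM against 25.8, 81.7, 45.3 and 86.3 CPM. Its log2 fold change was 2.45 ± 0.27 (edgeR adjusted p = 0.000131). Nr4a1, which encodes Nur77, rose by 1.52 ± 0.26 in edgeR and missed the threshold in DESeq2 (adjusted p = 0.0924). Bhlhe40, a repressor that T cells use for cytokine production, rose by 0.99 ± 0.15. Tnfaip3, the NF-kB brake A20, rose by 0.85 ± 0.19 (edgeR adjusted p = 0.031), but its adjusted p was 0.221, 0.0619 and 0.237 without PV replicate 1, PV replicate 2 and CV replicate 1.

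Among further transcripts that rose, Isg15, an interferon-induced ubiquitin-like protein, stood at 142, 129, 172 and 111 CPM against 38.7, 51.1, 61.2 and 37.5 CPM, with no overlap (log2 1.55 ± 0.16, edgeR adjusted p = 9.13e-05). Srgn, the granule proteoglycan serglycin, rose by 0.55 ± 0.08. Dusp2, a phosphatase induced in activated T cells and one of the immediate early list, rose by 1.08 ± 0.17. Among genes that shorten or block cytokine RNA, Zfp36l2 was the only one of 8 tested to rise (0.65 ± 0.11), and its adjusted p was 0.0608 without PV replicate 2.

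**Figure D3:**
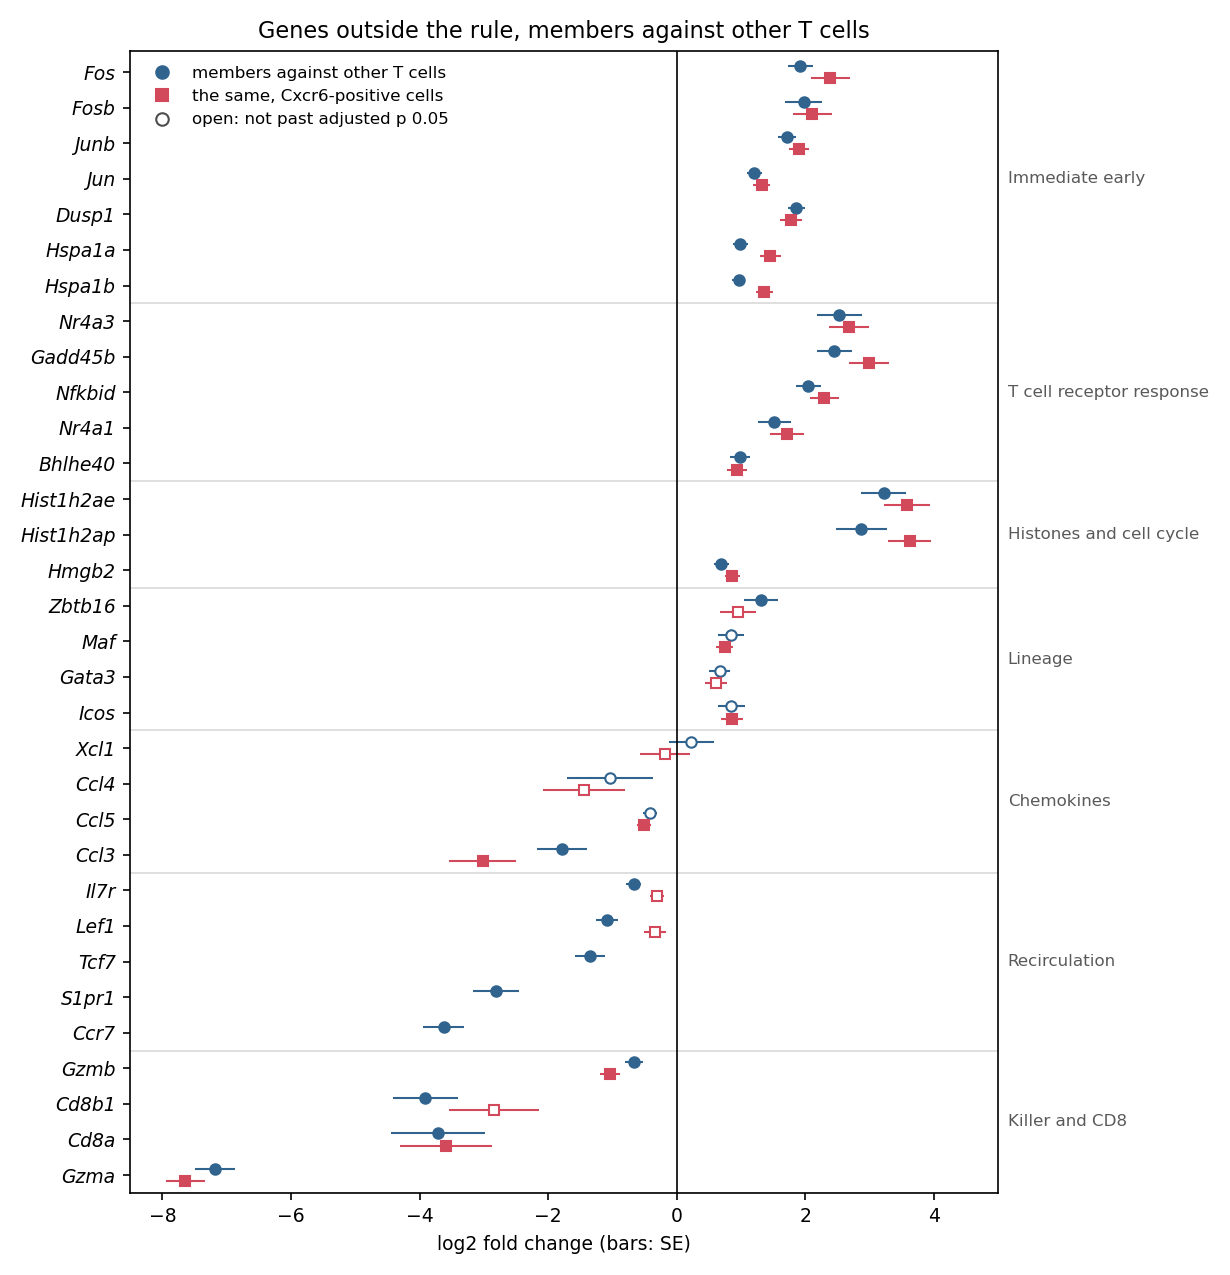
Log2 fold change (horizontal axis, bars are SE from edgeR's test on 4 libraries) of genes outside the rule, grouped by role. Circles are multi-cytokine against other T cells, and squares are the Cxcr6-positive cells of both. Open symbols missed an adjusted p of 0.05. The plotted receptor response and immediate early genes lie to the right in both comparisons, which share cells, and the recirculation genes lie to the left, with Ccr7 at -3.62.

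Recirculation and quiescence genes, by which naive and central memory T cells move between blood and lymph nodes, fell in part: 7 of 14 tested passed as lower and none as higher, and the median log2 fold change was -0.66. Ccr7, the chemokine receptor that guides T cells into lymph nodes, stood at 2.71, 6.47, 10.7 and 4.45 CPM against 33.9, 69.5, 79.9 and 126 CPM, with no overlap (log2 -3.62 ± 0.32, edgeR adjusted p = 2.31e-05). S1pr1, the exit receptor for blood and lymph, fell by 2.81 ± 0.36 on the log2 scale. Dapl1 fell by 4.37 ± 0.31 and Igfbp4 by 3.85 ± 0.47. Lef1, a transcription factor of naive T cells, fell by 1.08 ± 0.17. Tcf7 and Il7r fell by 1.35 ± 0.24 and 0.67 ± 0.11, and without PV replicate 2 their adjusted p was 0.101 and 0.0528. Cells with a Ccr7, Cd8a or Cd8b1 UMI were then left out on both sides. In that fit 66 genes passed, 58 higher and 8 lower, Lef1 stood at -0.43 (edgeR adjusted p = 0.462) and Tcf7 at -0.28 (edgeR adjusted p = 0.826).

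Killer genes did not move as a block: of 10 tested granule genes 2 rose and 2 fell, with a median log2 fold change of -0.03. Gzma, which encodes the protease granzyme A, stood at 2.71, 2.16, 1.52 and 4.45 CPM in the multi-cytokine T cells against 74.2, 527, 66.6 and 1028 CPM in the other T cells. It was held by 7 and 24 cells, and the log2 fold change was -7.18 ± 0.31 (edgeR adjusted p = 1.06e-08). Gzmb, granzyme B, stood at 194, 326, 356 and 329 CPM against 239, 494, 490 and 754 CPM, each library being lower in its multi-cytokine T cells. Its log2 fold change of -0.66 ± 0.14 (edgeR adjusted p = 0.0304) missed the threshold when any 1 of the 4 libraries was left out, with adjusted p of 0.0526, 0.154, 0.0506 and 0.0737.

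NK cells and ILC1 are innate lymphocytes that share killer genes with T cells. As a sum, their markers were lower in the multi-cytokine T cells of both CV libraries and near level in both PV libraries. Of 5 tested markers 1 fell, Fcer1g, and 2 had a log2 fold change above 0. The 9 markers summed to 529, 852, 545 and 933 CPM in the multi-cytokine T cells and to 547, 823, 1707 and 1413 CPM in the other T cells, with Klra8 at 0 in the former. When cells with a Tyrobp, Fcer1g or Ncr1 UMI were left out on both sides, 74 genes passed, and Gzmb turned to a log2 fold change of 0.92 and Cd7 to 0.47. Cd8b1, the CD8 beta chain, fell by 3.91 ± 0.50 on the log2 scale (2.71, 8.62, 16.8 and 1.48 CPM against 38.7, 163, 31.9 and 236 CPM).

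Of 10 tested lineage factors 1 rose, Zbtb16. It stood at 51.4, 46.3, 76.1 and 57.8 CPM in the multi-cytokine T cells and at 30.7, 24.5, 24.0 and 11.3 CPM in the other T cells, without overlap, and was detected in 27.2% against 13.0% of cells. Its log2 fold change was 1.31 ± 0.27 (edgeR adjusted p = 0.023). Without PV replicate 2, CV replicate 1 or CV replicate 2 its adjusted p was 0.0667, 0.119 and 0.0519. The median of the list was 0.36. Maf, Gata3 and the costimulatory receptor Icos had log2 fold changes of 0.85, 0.67 and 0.85 that missed the threshold (edgeR adjusted p = 0.0517, 0.0573 and 0.0672).

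The wider list of NKT and innate-like T cell genes, which also holds Zbtb16, did not move one way. Of 20 tested genes 1 rose and 3 fell, with a median log2 fold change of -0.05. The 3 that fell, Klra5, Klra7 and Klra9, encode Ly49 receptors of NK cells and some T cells, and their log2 fold changes were -2.84, -2.34 and -1.96 (edgeR adjusted p = 0.0457, 0.0418 and 0.0324). Each missed the threshold without PV replicate 1 and without CV replicate 1, and they are related genes whose reads may be shared.

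None of 16 tested residency genes passed (median 0.18). Cxcr6, the receptor that holds T cells in the liver sinusoids, was detected in 395 of 416 multi-cytokine T cells and in 235 of 331 other T cells. Its level of 776, 714, 696 and 875 CPM against 847, 562, 612 and 338 CPM overlapped (log2 0.42 ± 0.17, edgeR adjusted p = 0.363).

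Other cytokines and chemokines did not follow the 5 cytokine genes as a block. Of 22 further cytokine genes only 6 had enough counts for a test, and none passed (median 0.27). Ltb, a lymphotoxin chain, was found in 92.1% of multi-cytokine and 89.4% of other T cells. Il2, the T cell growth factor, was found in 33 cells (7.93%) against 18 (5.44%), Il13 in 3 against 1, and Il17a, Il17f and Il22 in none of either, which allows up to 0.721% of the multi-cytokine T cells for each. Of 4 tested chemokines Ccl3 fell by 1.79 ± 0.38 on the log2 scale (edgeR adjusted p = 0.0293). Its adjusted p was 0.0838, 0.0734 and 0.122 without PV replicate 1, PV replicate 2 and CV replicate 2, and 1 cell held 58.0% of its UMIs in the multi-cytokine T cells.

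The level of several genes moved step by step with the number of cytokine genes detected, as a description in which the groups of cells follow from the rule. Mean Nr4a3 over the 4 libraries was 13.4, 20.8, 59.3, 103 and 196 CPM in T cells with none, 1, 2, 3, and 4 or 5 cytokine genes. Junb went from 283 to 499, 734, 1675 and 1916 CPM. Fos was 202, 168 and 224 CPM up to 2 genes and 673 and 1270 CPM beyond, so cells that just met the rule were near the other T cells in Fos. Ccr7 went down from 139 to 41.7, 10.8, 3.86 and 1.08 CPM. Zbtb16 went from 14.0 to 27.5, 50.9 and 61.6 CPM and was 61.2 ± 55.9 CPM (SD, n = 4) at 4 or 5 genes, where the libraries ranged from 10.5 to 130 CPM.

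**Figure D4:**
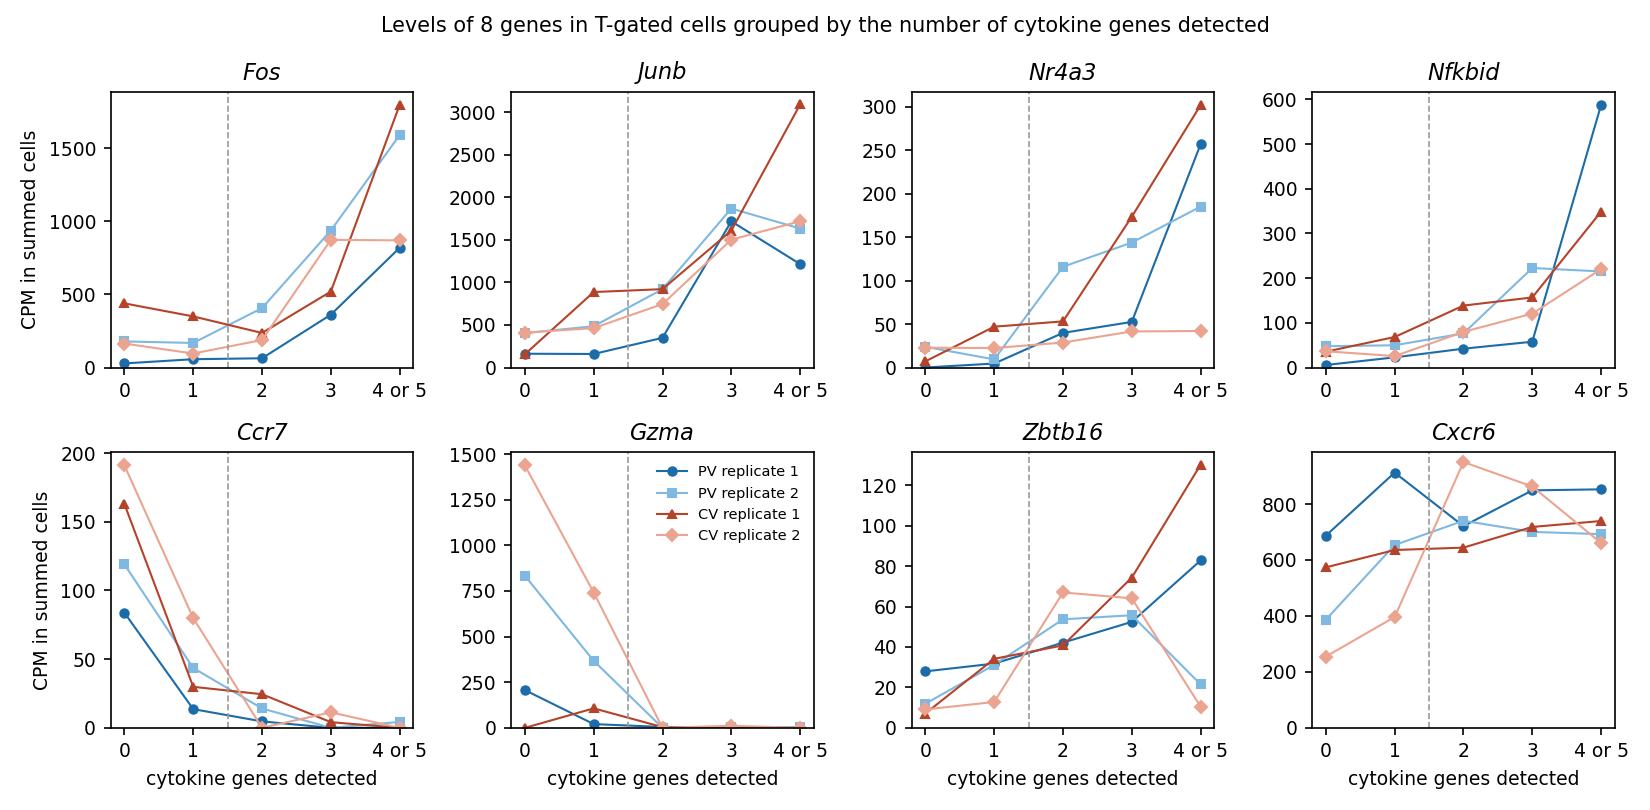
CPM in T cells summed per library (vertical axes, a line for each library) by the number of cytokine genes detected (horizontal axes); the dashed line marks the rule. Fos, Junb, Nr4a3, Nfkbid and Cxcr6 are higher at 3 genes than at 0 genes in all 4 libraries. Beyond 1 gene, each step of Cxcr6 goes up in some libraries and down in others. Ccr7 and Gzma are low at 3 genes and beyond (mean Ccr7 3.86 and 1.08 CPM).

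To compare cells of like residence, the 395 Cxcr6-positive multi-cytokine T cells were set against the 235 Cxcr6-positive other T cells, which are part of the cells compared above. In edgeR's test 76 of 5651 genes passed (1.34%), 59 higher (1.04%) and 17 lower (0.301%), and 53 of them were among the 104 genes above (69.7% and 51.0% of the lists). DESeq2 called 40. The immediate early list again had 15 of 20 tested genes higher and none lower (median 0.96, against -0.00993 over all genes), and the early receptor list 7 of 19 higher. None of 9 tested recirculation genes passed, and Ccr7, S1pr1, Dapl1 and Igfbp4, which fell in all T cells, had too few counts here to be tested. Of 20 tested NKT and innate-like genes 1 rose, Icos, and 4 fell, Klra5, Klra7, Klra9 and Klrd1 (median -0.29).

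Markers of antigen-presenting cells moved with this comparison. All 3 tested dendritic cell markers passed as higher, H2-Ab1, H2-Aa and Cd74, with a median log2 fold change of 2.15, and so did H2-Eb1 at 2.40. Cd74 stood at 50.5, 770, 27.7 and 365 CPM against 52.0, 105, 40.6 and 13.5 CPM, so that PV replicate 2 and CV replicate 2 were higher and the other two lower. In the multi-cytokine T cells 1 cell held 46.2% of the Cd74 and 43.9% of the H2-Eb1 UMIs, and none of these genes passed in DESeq2. Without the cells with more than 20 class II UMIs, Cd74 stood at -0.22 and H2-Ab1 at -0.64, and 81 genes passed, of which 69 were among the 76.

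Maf, a factor of IL-4-producing and innate-like T cells, stood at 282, 289, 373 and 275 CPM in the Cxcr6-positive multi-cytokine T cells against 189, 170, 240 and 138 CPM in the Cxcr6-positive other T cells. The values did not overlap, and the log2 fold change was 0.75 ± 0.13 (edgeR adjusted p = 0.00398). Icos rose by 0.86 ± 0.17 (edgeR adjusted p = 0.0151, and 0.14 without CV replicate 1). Zbtb16 had 0.95 ± 0.28 and missed the threshold (edgeR adjusted p = 0.157).

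Gzmb stood at 199, 338, 343 and 328 CPM against 273, 745, 608 and 1072 CPM in the Cxcr6-positive cells, a log2 fold change of -1.03 ± 0.15 (edgeR adjusted p = 0.000991). The share of cells with a Gzmb UMI was 42.0% and 43.4%, so the level differed more than the share of cells. Cd7, a surface receptor of T and NK cells, fell by 1.24 ± 0.17 and S100a4 by 1.20 ± 0.17 on the log2 scale. The NK and ILC1 genes Tyrobp and Fcer1g fell by 2.17 ± 0.40 and 2.43 ± 0.37 in edgeR, and missed the threshold in DESeq2 (adjusted p = 0.999 and 0.333).

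Dividing cells were few and lay mostly among the multi-cytokine T cells. At least 3 of 6 mitotic genes were detected in 6, 4, 2 and 2 multi-cytokine T cells, or 14 in all (3.37%, 95% Wilson interval 2.02% to 5.57%). Among the other T cells there were 1, 0, 1 and 1, or 3 in all (0.906%, 0.309% to 2.63%). These intervals pool cells over libraries and cover counting error only. The 14 cells had a median depth of 18876 UMIs and the 3 cells 17741, against 6558 in all multi-cytokine T cells. Deeper cells meet the rule more easily, and the part of depth in this difference was not tested. Top2a, which untangles replicated DNA, stood at 147, 60.5, 79.7 and 28.9 CPM in the Cxcr6-positive multi-cytokine T cells, from 19 cells, and had 1 UMI in the Cxcr6-positive other T cells. Ube2c had 168 UMIs in 12 cells against 0 UMIs in the 235 cells, and missed the threshold when shared barcodes were kept (edgeR adjusted p = 0.21).

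The replication histones Hist1h2ae and Hist1h2ap, which have near-identical copies and are uncertain for that reason, were higher by 3.22 ± 0.34 and 2.87 ± 0.40 in the multi-cytokine T cells. The highest cell held 18.1% and 20.7% of their UMIs, and Hist1h2ap stood at 1.26 (edgeR adjusted p = 0.6) when cells with a Tyrobp, Fcer1g or Ncr1 UMI were left out. Over the cell cycle list as a whole, 4 of 7 tested genes rose in the Cxcr6-positive cells, Top2a, Birc5, Stmn1 and Hmgb2 (median 0.86). Stmn1 missed the threshold there without PV replicate 1 (edgeR adjusted p = 0.19). In multi-cytokine against other T cells as a whole 1 of 8 tested genes rose, Hmgb2 (0.69 ± 0.12), whose adjusted p was 0.0777 without PV replicate 1 and 0.0608 without PV replicate 2.

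Within the multi-cytokine T cells, the 295 with an Il4 UMI were compared with the 121 without one, who by the rule held at least 2 of the other cytokine transcripts. In edgeR's test 7 of 3973 genes passed (0.176%), 3 higher (0.0755%) and 4 lower (0.101%). DESeq2 called 1, Cd7, and leaving out PV replicate 1, PV replicate 2, CV replicate 1 or CV replicate 2 gave 18, 1, 12 and 28 genes. Cd7 stood at 56.6, 89.7, 146 and 102 CPM in the Il4-positive cells against 293, 322, 350 and 259 CPM in the Il4-negative cells. The groups did not overlap, and the log2 fold change was -1.65 ± 0.19 (edgeR adjusted p = 2.36e-05). A Cd7 UMI was found in 31.2% and 43.0% of cells.

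Klrk1, which encodes the activating receptor NKG2D, stood at 174, 308, 157 and 296 CPM in the Il4-positive against 277, 686, 214 and 486 CPM in the Il4-negative cells (log2 -0.76 ± 0.16, edgeR adjusted p = 0.0341). The integrin Itga4 and the histone Hist1h2bc fell by 1.54 ± 0.29 and 1.83 ± 0.35 on the log2 scale. In the Il4-negative cells 1 cell held 55.1% of the Hist1h2bc UMIs. Without PV replicate 2 the adjusted p of Klrk1, Itga4 and Hist1h2bc was 0.534, 0.397 and 0.397. Gzmb and Nkg7, granule genes, had log2 fold changes of 0.12 and 0.08, and neither passed the test.

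The 3 genes higher in the Il4-positive cells, Cd74, H2-Ab1 and Apoe, are known from antigen-presenting cells and macrophages, and a few cells carried them. Cd74 stood at 49.3, 954, 37.7 and 485 CPM against 52.3, 37.4, 9.72 and 16.2 CPM, with PV replicate 2 and CV replicate 2 high. Of the class II UMIs in the Il4-positive cells (H2-Aa, H2-Ab1, H2-Eb1 and Cd74), 5 cells held 92.0%, and 1 cell held 61.2% of the Apoe UMIs. Without the 4 cells that held more than 20 class II UMIs, Cd74 and Apoe stood at 0.48 and 0.25 (edgeR adjusted p = 0.951 and 0.958) and H2-Ab1 had too few counts to be tested. Without PV replicate 2 their adjusted p in the comparison was 0.397 for Cd74, 0.41 for Apoe and 0.901 for H2-Ab1.

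The dendritic cell markers summed to 88.0, 1411, 70.1 and 629 CPM and the Kupffer cell markers outside the rule to 2.71, 183, 12.2 and 325 CPM in the multi-cytokine T cells. PV replicate 2 and CV replicate 2 were high for both. In the other T cells the sums were 96.8, 145, 1675 and 43.2 CPM for the dendritic and 4.84, 53.1, 799 and 20.6 CPM for the Kupffer cell markers, with CV replicate 1 far above the rest. The monocyte and neutrophil markers summed to 20.3, 701, 35.0 and 197 CPM, with Ly6g at 0, against 27.4, 24.5, 461 and 16.9 CPM in the other T cells. The part of these cells in the comparisons was not tested beyond leaving out the cells with many class II UMIs, after which 126 genes passed between multi-cytokine and other T cells. Markers of mast cells and basophils, which also make Il4, summed to between 4.06 and 21.6 CPM, and 4 of the 7, Ms4a2, Fcer1a, Gata2 and Cd200r3, were at 0. The 6 B cell markers outside the rule summed to 135, 169, 123 and 197 CPM against 157, 188, 149 and 221 CPM in the other T cells, with Ms4a1 at 0 in the multi-cytokine T cells.

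The zone comparison asked whether the multi-cytokine T cells were more frequent or different near the portal vein. They made up 48.8% (95% Wilson interval 41.9% to 55.6%) and 59.4% (52.6% to 65.9%) of the T cells in the PV libraries, and 59.8% (52.2% to 66.9%) and 55.3% (47.8% to 62.6%) in the CV libraries. The means were 54.1% ± 7.54 in PV and 57.5% ± 3.16 in CV (SD, n = 2 libraries each), a difference of -3.44 percentage points. It was smaller than the spread within PV, and the exact two-sided permutation p was 0.667, where 0.333 is the smallest this design allows. Keeping the barcodes shared between libraries gave -2.39 points, and leaving out PV replicate 1 gave 1.89 points.

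For each cytokine transcript the share of T cells was compared between the zones. The means of PV and CV were 35.9% and 38.7% for Ifng, 12.2% and 11.5% for Csf2, 60.0% and 58.4% for Cd40lg, 47.0% and 44.8% for Il4, and 23.0% and 26.0% for Tnf. The exact permutation p of these 5 comparisons was 0.667 or 1 before any adjustment. A design of 2 against 2 libraries cannot pass 0.05. With cells thinned to 2000 UMIs and the T cell conditions applied to the thinned counts, all 5 means were higher in CV. Tnf was then found in 9.84% and 10.2% of the T cells of PV against 15.7% and 14.5% of those of CV, and Il4 in 20.2% and 27.0% against 28.3% and 27.7%. For these 2 genes the zones did not overlap and the exact permutation p was 0.333, the smallest possible. The thinned means were 19.6% and 24.8% for Ifng, 4.39% and 5.97% for Csf2, and 32.3% and 34.3% for Cd40lg, with p of 0.667 or 1.

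The number of genes that passed between the zones within the multi-cytokine T cells depended on the libraries and the filter. In edgeR's test 0 of 6413 genes passed an adjusted p of 0.05 (0.0%), DESeq2 also called 0, and 217 genes had an unadjusted p under 0.05. With no low-count filter 43 passed. Without PV replicate 2, 62 genes passed, without CV replicate 2 43, without PV replicate 1 26 and without CV replicate 1 none. Library values did not overlap between the zones for 2007 genes (31.3%). Of the 5 genes with the smallest p, Hspa1b stood at 1033 and 1155 CPM in PV against 1962 and 1498 CPM in CV (log2 -0.68 ± 0.13). Alb, the hepatocyte gene for albumin, stood at 36.5 and 28.0 CPM in PV against 7.61 and 8.90 CPM in CV (log2 1.91 ± 0.41, edgeR adjusted p = 1, and 0.0118 with no low-count filter), and the hepatocyte markers as a list were 48.7 and 36.6 CPM against 9.14 and 11.9 CPM. A single cell held 23 of the 27 Alb UMIs of PV replicate 1. Without the highest cell of each library Alb stood at 5.48, 16.3, 1.55 and 6.06 CPM, and the zones overlapped.

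By lists, all 20 tested immediate early and dissociation genes had a log2 fold change below 0 between the zones (median -0.37). All 12 tested cell cycle genes had one above 0 (median 0.56). The median over all genes was -0.00128, and none of these listed genes passed the test. PV replicate 1 was the lowest library in Fos, Junb and Dusp1 and held 6 of the 14 dividing cells.

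The step from other to multi-cytokine T cells was also compared between the zones. Over all T cells 0 of 6042 genes had a step that differed (332 at an unadjusted p under 0.05), and in the Cxcr6-positive cells 11 of 5651 did. Ccl4, a chemokine of activated lymphocytes, stood at 168, 300, 69.95 and 147 CPM in the Cxcr6-positive multi-cytokine T cells and at 5.57, 467, 990 and 1136 CPM in the Cxcr6-positive other T cells. The other T cells differed more among libraries than the multi-cytokine T cells did. Those of PV replicate 1 were far below the rest, at the level of 3 UMIs. In all T cells together, Ccl4, Ccl5 and Xcl1 had log2 fold changes of -1.04, -0.41 and 0.23 that missed the threshold (edgeR adjusted p = 0.638, 0.0911 and 0.884).

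**Figure D5:**
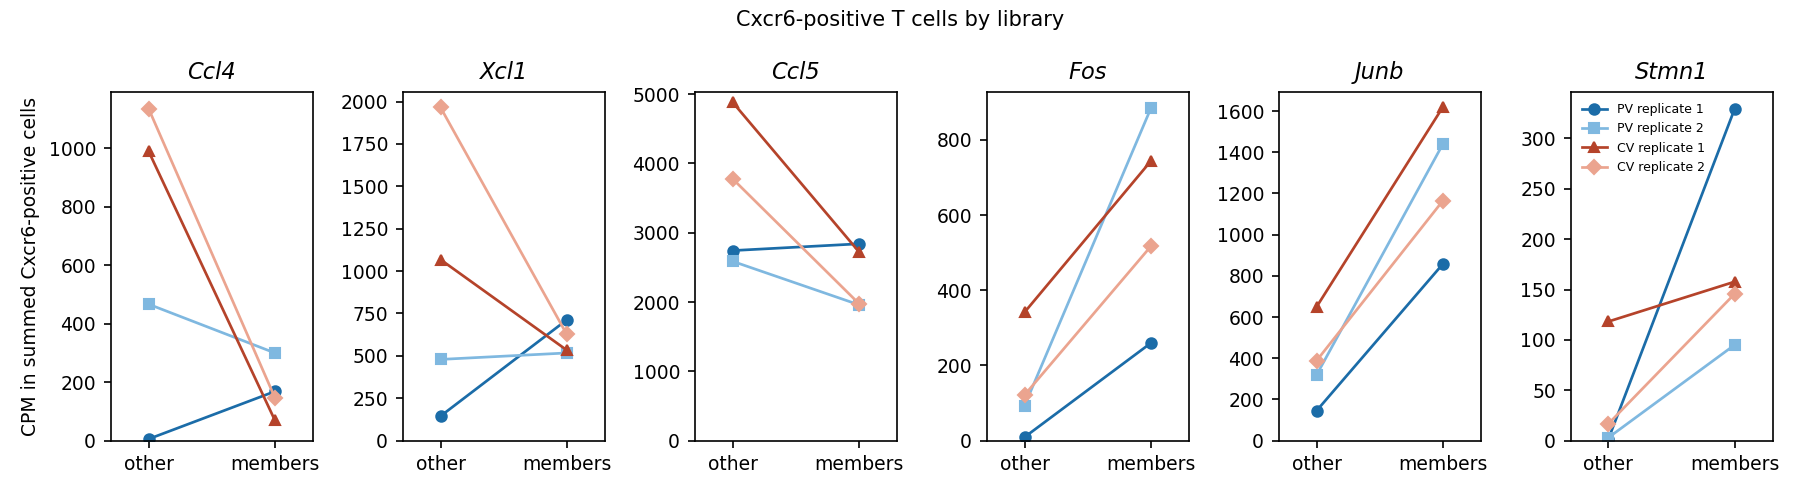
CPM (vertical axes) of 6 genes in the Cxcr6-positive other and multi-cytokine T cells ("members") summed per library, with a line for each library. For Ccl4 the CV lines and that of PV replicate 2 (467 to 300 CPM) go down, and that of PV replicate 1 goes up from 5.57 to 168 CPM. For Xcl1 the CV lines go down and the PV lines go up, while for Fos and Junb every line goes up.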

How the data were processed

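The values the authors deposited are unnormalised UMI counts in a gene by barcode matrix for each library, in which every barcode has 500 UMIs or more. Cell Ranger 4.0.0 and mm10 are named per the submitters' processing notes. For the annotation and the calling of cells, settings were not given in the sources used here. Droplets and libraries followed 10x 3′ v3.1 chemistry, per the labels' protocols. Symbols were matched for 32158 identifiers, positions were taken from GENCODE vM21 (GRCm38), and upstream windows from RefSeq (GRCm38.p6).

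Cells were kept with at least 200 genes, at most 10% mitochondrial UMIs and at least 70% of their barcode's UMIs in their own library. With an expected rate of 3%, scrublet (scanpy 1.11.5) called 12 doublets, 2 of them multi-cytokine T cells, and these were kept except in an alternative. Replicate libraries differed by more than counting noise (chi-square per degree of freedom 2.56 in PV and 1.97 in CV) and were counted separately. The rule, the gene lists and the cells were chosen with earlier results of these data known, so no list is independent evidence.

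Raw counts were summed per library and side, genes with low counts were filtered with filterByExpr, and edgeR 4.0.16 in R 4.3.3 (TMM factors, quasi-likelihood test, Benjamini-Hochberg adjustment over all genes tested) was run with the library as a block where both sides came from the same library. Shares of multi-cytokine T cells were compared with an exact permutation test in scipy 1.17.1. CPM are per 1000000 UMIs of the summed cells. The SE of a log2 fold change is its size divided by the square root of edgeR's F value. That test pools variance across genes, so the SE is not the spread of the library values. DESeq2 1.42.0, other scaling factors, no low-count filter, thinning to 2000 UMIs, other cell limits, stricter membership, other comparison cells and left-out libraries were alternatives. On simulated counts the test of multi-cytokine against other T cells, on 5782 genes, recovered 80.9% of 2-fold changes with 9 false calls, and that between zones, on 6131 genes, 35.6% of 2-fold and 98.4% of 4-fold changes with 22 false calls.

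Named genes were those of the rule, the 15 highest and 10 lowest called genes on 1 side in every library, up to 5 genes per list with the smallest p, and the 5 smallest p where fewer than 5 passed. Genes named beside these were chosen after their values were seen. Some genes are not reported here and stand in none of the lists.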

Additional observations from a re-analysis of the deposited data

Results flagged for a closer look

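In the Cxcr6-positive T cells, the step from other to multi-cytokine T cells differed between PV and CV for 11 genes by a test of the difference itself (edgeR interaction term over 4 libraries). Over all T cells none of these genes passed, with edgeR adjusted p between 0.138 and 0.901. The values below are the log2 step in PV minus that in CV.

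For the chemokines, the difference was 3.91 ± 0.62 (SE) for Ccl4, 2.48 for Xcl1 and 0.72 for Ccl5, each with an edgeR adjusted p of 0.00525. Xcl1 stood at 713, 517, 534 and 626 CPM in the Cxcr6-positive multi-cytokine T cells (PV replicate 1 first, CV replicate 2 last) and at 145, 479, 1068 and 1965 CPM in the Cxcr6-positive other T cells. Ccl5 stood at 2840, 1961, 2726 and 1979 CPM against 2742, 2588, 4884 and 3779 CPM. In the other T cells 1 cell held 25.1% of the Ccl4 and 37.4% of the Xcl1 UMIs. Ccl4 in the other T cells of PV replicate 1 stood at 5.57 CPM, the level of 3 UMIs there. Ccl4 and Ccl5 stepped up in PV replicate 1 only, and the test of the difference was not repeated with a library left out.

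For the immediate early genes, the difference was 2.14 for Fos (edgeR adjusted p = 0.00738) and 0.92 for Junb (0.0375), with a step upwards in all 4 libraries. Fos stood at 260, 883, 743 and 517 CPM against 9.28, 92.7, 341 and 121 CPM. Rgs2, a brake on receptor signals, differed by 1.98 (edgeR adjusted p = 0.00904).

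For genes of proliferating cells, the difference was 5.32 for Stmn1 (edgeR adjusted p = 0.00525), 2.27 for Dut (0.00899), 1.91 for Tuba1b (0.00904), 0.56 for Ptma (0.00904) and 0.85 for Npm1 (0.0375). Stmn1 stood at 330, 95.2, 158 and 146 CPM against 1.86, 3.09, 118 and 16.9 CPM. The 1.86 and 3.09 CPM of PV lay below the level of 3 UMIs, 5.57 and 9.27 CPM in those sums. The size of the Stmn1 difference thus rests on very few UMIs. In the other T cells 1 cell held 45.2% of the Stmn1 UMIs. Dividing cells and single cells with many UMIs move with these values. Their part in the differences was not tested.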

How the results depend on the processing

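For multi-cytokine against other T cells (104 genes), DESeq2 gave 56 genes, no low-count filter 277, comparison cells with none of the cytokine genes 184, comparison cells with exactly 1 of them 32, no cells with a Ccr7, Cd8a or Cd8b1 UMI 66, and leave-one-out runs 54 to 113. For Cxcr6-positive cells (76 genes), DESeq2 gave 40, no filter 199 and leave-one-out runs 54 to 102. For Il4-positive against Il4-negative cells (7 genes), DESeq2 gave 1, no filter 42, thinning to 2000 UMIs 2 and leave-one-out runs 1 to 28. Between zones (0 genes), no filter gave 43 and leave-one-out runs 0 to 62, in which the lone library of a zone is assumed to vary like the others. The cause of these changes was not tested.

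The replicate block gave 30 genes between zones, 18 higher and 12 lower in PV, and the 5 genes with the smallest p between zones passed under it and with no low-count filter. For the share of multi-cytokine T cells, the block by number gave differences of -11.0 and 4.13 percentage points with the same mean, -3.44. Deviations of the libraries numbered 1 correlated at 0.201 over 6413 genes, but with 2 numbers this does not show that the numbers pair the libraries. The share difference without each library ranged from -8.77 to 1.89 points and turned positive without PV replicate 1. It was -8.70 with thinned cells.

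Direction did not reverse in any setting that tested the gene for 101 of 104, 74 of 76 and 7 of 7 called genes. The call was kept for 27, 26 and 1. A called gene that was not tested in a setting was counted as keeping its direction there. With cells thinned to 2000 UMIs only 2490, 2345 and 1330 genes were tested in all. Without cells with a Tyrobp, Fcer1g or Ncr1 UMI, Gzmb turned to 0.92 and Cd7 to 0.47. Without cells with a Ccr7, Cd8a or Cd8b1 UMI, Tsc22d3 turned to 0.0868. Without the cells with over 20 class II UMIs, Cd74 and H2-Ab1 turned to -0.22 and -0.64 in the Cxcr6-positive cells. Settings that removed cells by NK, recirculation or class II genes or by doublet calls, that with 1-gene comparison cells, and levels without the highest cell were chosen after seeing the data. Thinning left out 3 multi-cytokine and 15 other T cells, and DESeq2 genes without an adjusted p were not counted as lost.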

Other observations

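Of 9 tested checkpoint and costimulatory receptor genes 1 fell and none rose between multi-cytokine and other T cells (median log2 fold change 0.12), where 1.72% of all genes tested passed. Tox, a factor of long-stimulated T cells, stood at 44.7, 35.6, 28.9 and 29.7 CPM in the multi-cytokine T cells, with the libraries in the same order, against 61.3, 77.6, 66.6 and 67.6 CPM, with no overlap. It fell by 0.98 ± 0.21 on the log2 scale (edgeR adjusted p = 0.0281, and 0.218, 0.104 and 0.0689 without PV replicate 2, CV replicate 1 and CV replicate 2). Pdcd1, which encodes PD-1, was found in 13 of 416 multi-cytokine and 8 of 331 other T cells, and Lag3 in 3 and 15.

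The survival genes Bcl2a1b and Bcl2a1d, near-identical copies whose separate counts are uncertain, rose by 0.92 ± 0.13 and 1.25 ± 0.14. Ccr9, the gut homing receptor, stood at 111, 60.4, 50.3 and 113 CPM in the multi-cytokine T cells against 59.7, 38.8, 37.3 and 28.2 CPM, each library being higher in its multi-cytokine T cells. It rose by 1.01 ± 0.22 (edgeR adjusted p = 0.0343), and missed the threshold without PV replicate 1, PV replicate 2 or CV replicate 2 (adjusted p = 0.18, 0.106 and 0.124). None of 16 tested genes of cytokine and STAT signalling (median 0.11) and none of 14 tested genes of biosynthesis and energy (median 0.22) passed.

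Among all 747 T cells, pairs of the 5 cytokine genes were found together more often than the product of their shares in each of the 10 pairs, from 1.12 times for Cd40lg and Tnf to 1.55 times for Ifng and Csf2 (53 cells against 34.1). Deeper cells detect more of every gene, so this is a description.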
